A study of Danio rerio with 7 samples.

Results

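The mitochondrial genome of zebrafish carries genes for subunits of cytochrome c oxidase, ATP synthase and the cytochrome bc1 complex. Described here are MT-CO1, MT-CO2, MT-CO3, MT-ATP6, MT-ATP8 and MT-CYB, which are 6 of the 13 mitochondrially encoded genes that had a symbol, and 6 of 16394 genes in the 7 tables. They were chosen by symbol alone, as every gene whose symbol starts with mt-co, mt-atp or mt-cyb. The rule itself uses no measured value, though it was set with earlier results of these data known. They are called the members here.

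Each respiratory complex that these genes serve is built from a few mitochondrially encoded and many nuclear-encoded proteins. Cytochrome c oxidase (complex IV) has its catalytic core made in mitochondria from MT-CO1, MT-CO2 and MT-CO3, and its other subunits (the cox4 to cox8 families) are made in the cytosol. ATP synthase uses the proton gradient to make ATP, and heart muscle, which contracts without rest, depends on it. Mitochondrial genes are transcribed as long joint precursors that are cut into messengers, while their nuclear partners are each transcribed separately.

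The cells came from adult ventricles of zebrafish 7 days after cryoinjury, a freezing wound of the heart. All fish carried Tg(nppa:mCitrine), in which the promoter of a natriuretic peptide gene drives a fluorescent protein. The wild-type group was hmga1a+/+ (3 plates) and the mutant group hmga1a-/- (4 plates). Cells with high reporter fluorescence were sorted 1 per well into 384-well plates, and transcripts were counted by CEL-seq2, which reads 3′ ends and marks each molecule with a random barcode (UMI). The reporter marks cells in which the nppa promoter is active, and other cells of the ventricle enter only where they pass the sort. The series text names mCitrine as the sorting colour and the treatment protocol names mCherry. The text gives 12 hearts and 768 sorted cells per genotype and says that a further wild-type plate was lost at sequencing, while the 7 tables hold 2688 wells. The labels give no animal for any plate, so a p-value here reflects differences among plates, and these may be technical. Plates are numbered in order of deposit, and equal numbers do not pair plates. The flow cell named for each plate gave 2 sequencing runs: run 1 held wild-type plate 1 and mutant plates 1 and 2, and run 2 held the other 4 plates.

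Of 2688 wells, 1033 had at least 1000 transcripts outside spike-ins and mt- genes and were kept (22.1% to 52.6% of a plate), with plate totals in kept wells of 260496 to 753855 transcripts. Genes with a symbol starting with mt- are called mt- genes here, so a mitochondrial gene without a symbol would not be included. Clustering without mt- genes, hmga1a and spike-ins put 928 of the kept wells in clusters that carried cardiomyocyte markers, here called cardiomyocyte-like. The remaining 10.2% were left unnamed. Clusters of fewer than 15 wells were not named whatever their markers. Among these was 1 of 13 wells whose median well had a cardiomyocyte marker share of 14.93%. The level of hmga1a, the mutated gene, was 105.6, 118.95 and 100.02 CPM (transcripts scaled to a common library size) in the wild-type plates, against 49.04, 48.2, 9.72 and 34.4 CPM in the mutant plates over all kept wells. Every mutant plate lay below every wild-type plate there. The log2 fold change of hmga1a was -1.84 (SE 0.42, adjusted p = 0.104, edgeR's quasi-likelihood test with Benjamini-Hochberg adjustment), so it did not pass. It passed in 3 of 21 other settings, DESeq2 among them (adjusted p = 0.00737 by DESeq2), and its direction held in all 21. In cardiomyocyte-like wells the groups overlapped for hmga1a, since wild-type plate 1 was at 50.03 CPM and mutant plate 1 at 55.7 CPM. Where the mutation lies relative to the counted 3′ end was not stated in the labels. Cardiomyocyte markers summed to 2205, 2216 and 2132 per 10000 transcripts of cardiomyocyte-like wells in the wild-type group. In the mutant group they summed to 1781, 1885, 2003 and 1775, so the sum was lower in every mutant plate. Single markers did not all follow the sum. Relative to plate totals over all kept wells, MYL7, the most abundant marker, was lower in every mutant plate. By the same measure mb, tnnc1a and ckma were higher in every mutant plate. Of the 13 matched macrophage and leukocyte markers, cd74a and cd74b led in mutant plate 1, where the list summed to 16.2 per 10000 transcripts over all kept wells, against 2.23 or less in each other plate. The 12 matched fibroblast and epicardial markers, led by krt8 and krt18a.1 in wild-type plates 1 and 3, summed to 16.3, 2.62 and 12.05 per 10000 transcripts in the wild-type plates, against 7.55, 8.26, 1.33 and 2.23 in the mutant plates. In cardiomyocyte-like wells the macrophage list reached at most 0.520 per 10000 in any plate and the fibroblast list 1.39 to 2.36.

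Of the 6 members, 5 were found in 81.7% to 96.4% of kept wells. MT-ATP6, the proton-channel subunit of ATP synthase, had 34127 transcripts in kept wells and was found in 96.4% of them. MT-CO2, which takes electrons from cytochrome c, had 30073 transcripts (93.2% of wells). MT-CO1, the catalytic subunit of cytochrome c oxidase, had 20538 (85.2%). CEL-seq2 counts a molecule once whatever its length, so these totals are not scaled by length. MT-CO3, a structural core subunit of the same enzyme, had 17327 transcripts (81.7% of wells). MT-CYB, the mitochondrially encoded subunit of the cytochrome bc1 complex (complex III), had 16865 (82.3%). MT-ATP8, a small membrane subunit of ATP synthase, stood far below the others with 236.1 transcripts, found in 11.8% of kept wells. MT-ATP8 directly precedes and overlaps MT-ATP6 in the mitochondrial genome, and MT-ATP6 directly precedes MT-CO3 (gene order from RefSeq's table for the GRCz12tu assembly). The labels do not say how reads in overlapping genes were assigned, so the split between MT-ATP8 and MT-ATP6 is uncertain.

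Over all kept wells, no member passed the test between genotypes, while 14 of the 2798 genes tested did (0.5% in both directions). DESeq2 passed 47 genes and again 0 members. In these sums over wells, fewer cells with a transcript cannot be told apart from less RNA per cell. At an unadjusted p under 0.05 the count was 4 of the 6 members (MT-CO1, MT-CO3, MT-ATP6 and MT-CYB), against 12.7% of all genes tested. The level of MT-CO1 was 5273, 5466 and 5079 CPM in the wild-type plates, against 7750, 5913, 7518 and 6316 CPM in the mutant plates. All mutant plates were thus above all wild-type plates for MT-CO1, a pattern that 5.83% of tested genes showed. Its log2 fold change was 0.38 (SE 0.14; adjusted p = 0.260, edgeR's quasi-likelihood test with Benjamini-Hochberg adjustment).

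For the other members over all kept wells the term for sequencing run passed the test and the term for genotype did not. MT-ATP6 was at 11260 CPM in wild-type plate 1 and 7428 and 7190 CPM in wild-type plates 2 and 3, against 15846 and 16047 CPM in mutant plates 1 and 2 and 10247 and 9025 CPM in mutant plates 3 and 4. Within each run the mutant plates were the higher ones, but wild-type plate 1 exceeded both mutant plates of run 2. MT-CO2 was at 10120, 6866 and 7408 CPM in wild-type plates, against 13528, 13132, 8992 and 6536 CPM in mutant plates, with mutant plate 4 the lowest of all 7. MT-CO3 was at 5561, 3984 and 3979 CPM and 7378, 7281, 5757 and 4372 CPM, and MT-CYB at 5026, 3758 and 3756 CPM and 8254, 7805, 4942 and 4060 CPM, in the same order of plates. In both of these genes the plates of run 1 were the high ones within each genotype, and the groups overlapped. MT-ATP8 was at 156.6, 40.1 and 45.7 CPM in wild-type plates, against 127.05, 93.04, 56.4 and 47.7 CPM in mutant plates, with wild-type plate 1 the highest of all. The run term of the same fit was negative (run 2 lower) and past the threshold for MT-CO2, MT-CO3, MT-ATP6, MT-ATP8 and MT-CYB, against 2.79% of all genes tested, and was 0.01 for MT-CO1 (adjusted p = 0.979). With the run in the fit, the log2 fold changes between genotypes were 0.23 for MT-CO2 (SE 0.14), 0.37 for MT-CO3 (SE 0.13), 0.44 for MT-ATP6 (SE 0.12), 0.42 for MT-CYB (SE 0.14) and -0.06 for MT-ATP8 (SE 0.29), with adjusted p from edgeR's test of 0.540, 0.257, 0.148, 0.219 and 0.971.

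In cardiomyocyte-like wells the members were lower than in all kept wells in every plate, and 4 of the 6 rose in mutant plates. These were MT-CO1, MT-CO3, MT-ATP6 and MT-CYB, while 2.44% of the 2128 genes tested rose. Which wells entered that class bears on the result, and 2 genes without a symbol that follow the members closely took part in the clustering. The summed cardiomyocyte markers were lower in these same mutant wells, though over all kept wells single markers did not all follow. The part of the markers in the result was not tested. The wells of the class were spread over its clusters in different proportions in the 2 genotypes. The clusters led by PARL and by hspb6 each held 23.6% of the wild-type wells of the class, against 10.9% and 6.81% of its mutant wells. The clusters led by myh6, by ANXA2 and by ENSDARG00000084962 held 17.7%, 10.7% and 8.73% of the wild-type wells, against 23.8%, 19.4% and 18.3% of the mutant wells. Within a single cluster, the summed share of the members was higher in every mutant plate in 2 of the 8 clusters of the class, and the plates overlapped in 6. Of those 2, the cluster led by PARL had 5 to 39 wells per plate, but the one led by ENSDARG00000093817 had only 2 to 8. Among those 6, the cluster led by FOS had 1 wild-type well. The cluster led by ENSDARG00000084962 had 2 wells from mutant plate 2. With so few wells behind some shares, this tally cannot decide whether the rise holds within clusters. For 5 of the 6 members, all but MT-ATP8, every mutant plate lay above every wild-type plate, as it did for 7.85% of genes tested.

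MT-ATP6 in cardiomyocyte-like wells stood at 4770, 4254 and 4361 CPM in wild-type plates, against 9207, 8432, 6796 and 6133 CPM in mutant plates. Its log2 fold change was 0.70 (SE 0.14; adjusted p = 0.00425, edgeR's quasi-likelihood test with Benjamini-Hochberg adjustment). The mutant plates of run 1 were higher than those of run 2, and all were above the wild-type plates. MT-CO1 was at 1851, 2881 and 2583 CPM in wild-type plates, against 4462, 2965, 4517 and 3687 CPM in mutant plates. For MT-CO1 the nearest plates of the groups, wild-type plate 2 and mutant plate 2, were from different runs and close to each other. The log2 fold change of MT-CO1 was 0.75 (SE 0.17; adjusted p = 0.00997 by edgeR). MT-CO3 was at 1957, 1989 and 2007 CPM in wild-type plates, against 3874, 3155, 3450 and 2661 CPM in mutant plates, a log2 fold change of 0.70 (SE 0.15; adjusted p = 0.00882 by edgeR). The wild-type plates lay close together for MT-CO3, and the mutant plates were spread more widely.

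MT-CYB was at 1851, 2082 and 1928 CPM in wild-type plates, against 4769, 3549, 2959 and 2356 CPM in mutant plates of cardiomyocyte-like wells, a log2 fold change of 0.69 (SE 0.18; adjusted p = 0.0240 by edgeR). Mutant plate 1 was the highest for MT-CYB and mutant plate 4 the nearest to wild type. The difference of mean log2(CPM + 1) was 1.15 within run 1 and 0.40 within run 2, and the genotype by run interaction had an unadjusted p of 0.0276 and an adjusted p of 0.532 by edgeR (no gene passed that test, 0% of those tested). MT-CO2 was at 3919, 3903 and 3965 CPM in wild-type plates, against 7306, 6147, 5721 and 4308 CPM in mutant plates. Its groups did not overlap, yet it did not pass the threshold (log2 fold change 0.52, SE 0.15; adjusted p = 0.0616 by edgeR). MT-ATP8 was at 83.4, 22.3 and 26.4 CPM and 52.2, 35.4, 33.1 and 28.3 CPM, from 8 to 16 transcripts per plate. Wild-type plate 1 was the highest for MT-ATP8 and the groups overlapped (log2 fold change -0.16, SE 0.46; adjusted p = 0.919 by edgeR). The sign of that value changed in several other settings, and no difference in MT-ATP8 was detected.

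**Figure D1:**
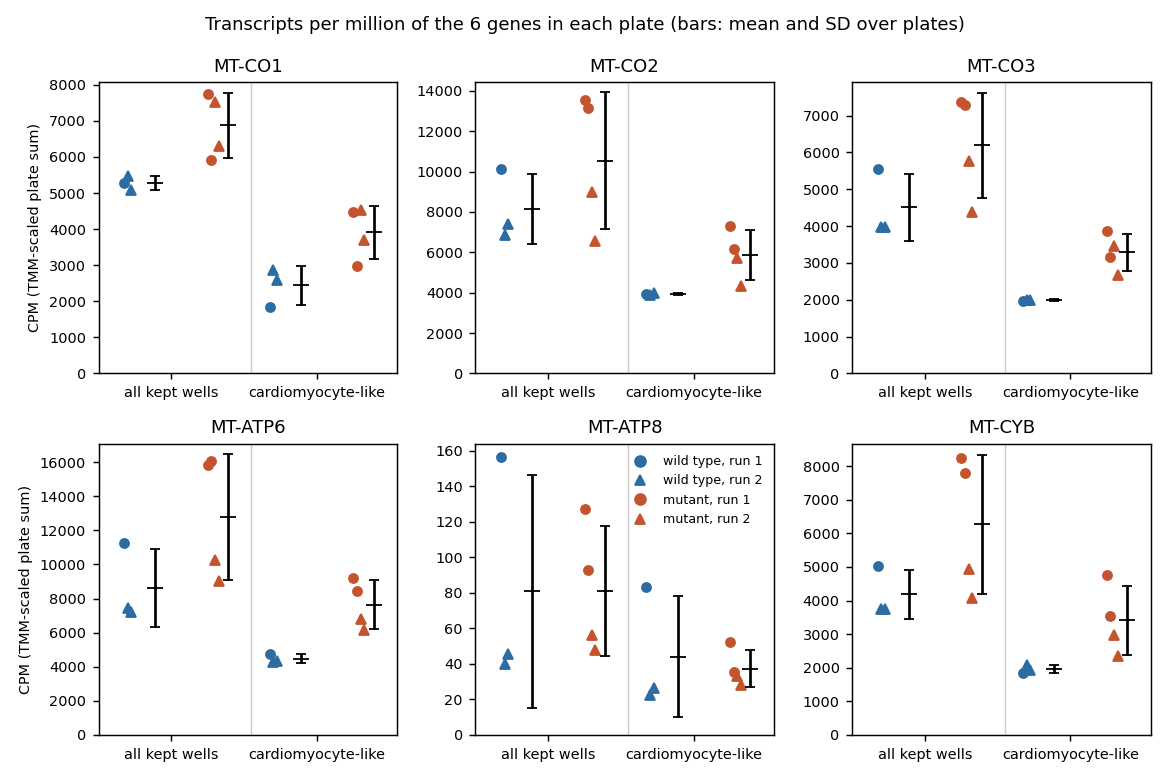
Level of each of the 6 genes in each plate, as CPM of plate sums scaled by TMM (vertical axis, from 0), over all kept wells (left of each panel) and cardiomyocyte-like wells (right). Points are plates (circles run 1, triangles run 2; blue wild type, 3 plates; orange mutant, 4 plates) and bars the mean with SD; in cardiomyocyte-like wells mutant points lie above all wild-type points for each gene except MT-ATP8.

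The rise in cardiomyocyte-like wells held its direction but not its call under several settings. Without wild-type plate 1, the only wild-type plate of run 1, the estimate rests on run 2 and no member passed (adjusted p = 0.286 for MT-CO1, 0.205 for MT-CO3, 0.174 for MT-ATP6 and 0.545 for MT-CYB by edgeR). Within run 2 alone no member passed either. Run 1 alone has 1 wild-type plate, taken in the fit to be as variable as the 2 mutant plates, so the passes of 5 members there (all but MT-ATP8) rest on no spread between wild-type plates. Without mutant plate 1, the plate with the most macrophage transcripts, MT-CO1, MT-CO3 and MT-ATP6 still passed and MT-CYB did not (adjusted p = 0.0531 by edgeR). MT-CYB also missed the threshold without wild-type plate 3 (adjusted p = 0.0544 by edgeR) and without mutant plate 3 (adjusted p = 0.0603). Without mutant plate 4, MT-CO2 passed as well (log2 fold change 0.66, adjusted p = 0.00647 by edgeR). Leaving the 2 genes without a symbol out of the clustering made 978 wells cardiomyocyte-like and only MT-ATP6 passed (log2 fold change 0.68, adjusted p = 0.0452 by edgeR). With a coarser clustering (resolution 0.5, 969 wells) or with wells of at least 500 transcripts (1178 wells) no member passed, nor did any with no filter on low counts. The log2 fold changes of the 4 genes were smaller at resolution 0.5, with 0.47 for MT-CO1, 0.39 for MT-CO3, 0.38 for MT-ATP6 and 0.42 for MT-CYB. With no filter they were 0.62 to 0.67. In the same order of genes they were 0.57, 0.59, 0.56 and 0.39 without wild-type plate 1, and 0.58, 0.61, 0.58 and 0.40 in run 2 alone. Only MT-CO3 and MT-ATP6 passed at 2000 transcripts or without the run term, and only MT-CO1 and MT-ATP6 with thinned wells. At 500 transcripts the log2 fold changes shrank to 0.16 for MT-CO1, 0.08 for MT-CO3, 0.17 for MT-ATP6 and 0.08 for MT-CYB, and that of MT-CO2 was -0.04.

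**Figure D2:**
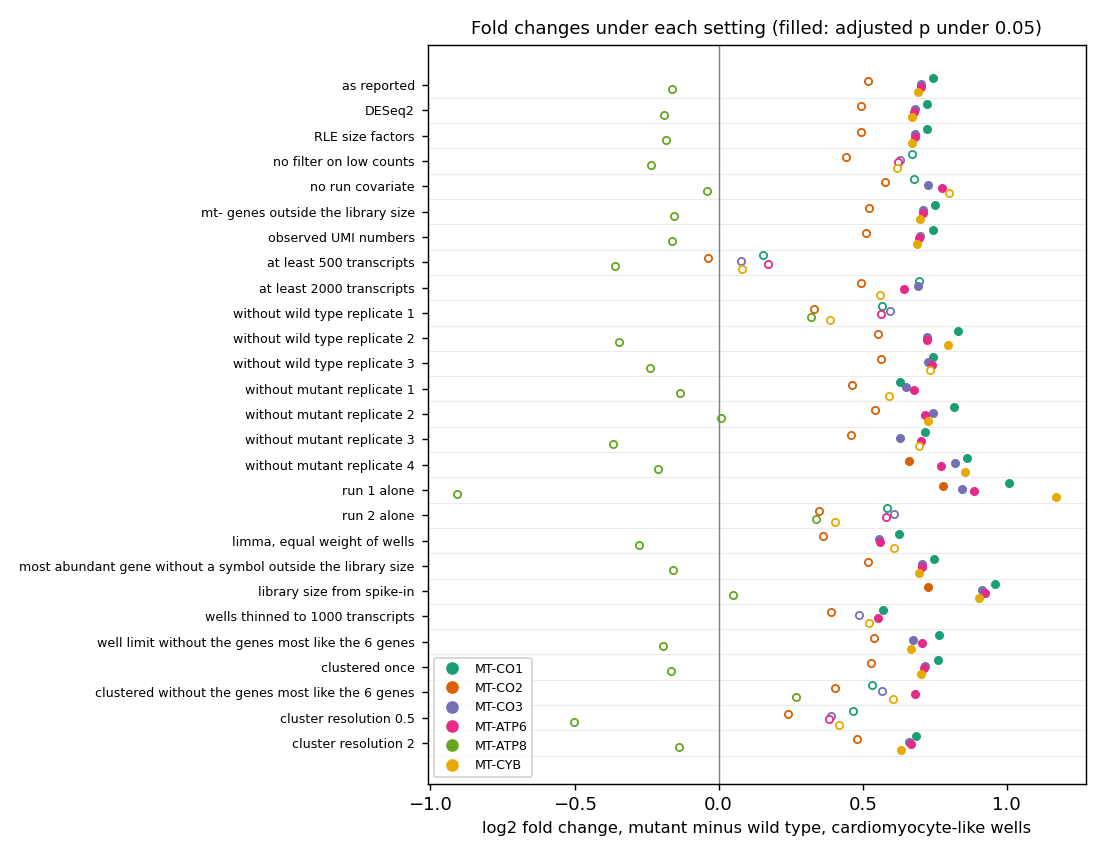
Log2 fold change (mutant minus wild type, horizontal axis) of the 6 genes in cardiomyocyte-like wells, as reported and under each of 26 other settings (rows), 1 colour per gene. Filled points had an adjusted p under 0.05 in that setting's fit across all genes; MT-CO1, MT-CO3, MT-ATP6 and MT-CYB lie right of 0 in every row, and no point is filled at 500 transcripts, at resolution 0.5, without wild-type replicate 1, with no filter or in run 2 alone.

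The share of the 6 genes together differed widely between wells of 1 plate, and the highest well of each plate reached 26.8% to 51.4%. The median well gave 0.883%, 0.912% and 0.884% of its transcripts to them in the wild-type plates. In the mutant plates it gave 2.001%, 1.70%, 0.821% and 0.940%. By the median, the mutant plates of run 1 stood well above wild type, mutant plate 4 slightly above it and mutant plate 3 below every wild-type plate. The mean difference was 0.967 percentage points within run 1 and -0.0170 within run 2. The 90% quantile was 6.56%, 8.52% and 6.99% in wild-type plates, against 13.98%, 11.001%, 11.6% and 8.69% in mutant plates. Wells with a share over 10% made up 7.07%, 7.92% and 6.57% of kept wells in wild-type plates, against 16.7%, 11.8%, 12.6% and 8.45% in mutant plates. By both measures every mutant plate was above every wild-type plate, though mutant plate 4 only narrowly. The limit for keeping a well counted the genes without a symbol that follow the members. With those genes left out of the limit, 942 of the 1033 kept wells still passed it. Whether the 90% quantile and the wells over 10% differ in the same way among those 942 wells was not tested.

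**Figure D3:**
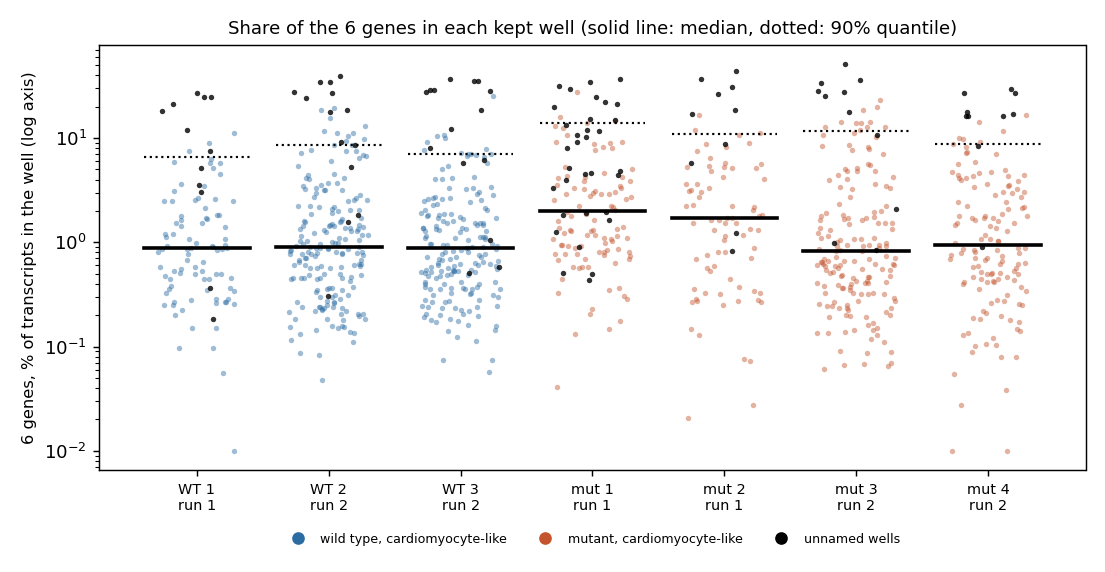
Share of the 6 genes in each kept well (vertical log axis, percent of all transcripts outside spike-ins) by plate, for 3 wild-type (WT) and 4 mutant (mut) plates. Coloured points are cardiomyocyte-like wells, black points unnamed wells, solid lines the plate median and dotted lines the 90% quantile; 3 wells without a transcript of these genes are drawn at the lower end. Medians of run 2 plates lie close together, and most black points lie near the top.

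In cardiomyocyte-like wells plate sums of the share were apart between the groups and medians over wells were not. The share in the summed transcripts was 1.45%, 1.48% and 1.48% in wild-type plates, against 2.95%, 2.59%, 2.25% and 1.92% in mutant plates, so that the groups did not overlap. The median well had 0.855%, 0.863% and 0.802% in wild-type plates, against 1.34%, 1.55%, 0.676% and 0.846% in mutant plates, and these overlapped. A plate sum weighs wells by their transcripts, and more cells with a high share cannot be told apart from more RNA per cell in such a sum. Per spike-in transcript, the median well had 0.0145, 0.00870 and 0.00943 member transcripts in wild-type plates, against 0.0376, 0.0351, 0.00743 and 0.0114 in mutant plates. All transcripts per spike-in transcript also differed by run there, with medians of 1.86 to 2.59 in run 1 and 0.924 to 1.11 in run 2.

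The composition of the 6-gene sum overlapped between genotypes over all kept wells. MT-ATP6 made up 27.8% ± 2.08 of it (SD, n = 3) for wild type and 29.7% ± 1.89 (SD, n = 4) for mutant plates. MT-CO2 followed with 26.3% ± 1.21 and 24.3% ± 2.06. MT-CO3 held 14.6% ± 0.225 and 14.5% ± 0.581. MT-CO1 ranged most, from 11.8% to 20.8%, with the 3 plates of run 1 at 14.1%, 14.7% and 11.8% and the run 2 plates all at 18.5% or more. MT-CYB held 13.6% ± 0.129 and 14.4% ± 1.33. In cardiomyocyte-like wells MT-CO2 was the exception, with 27.2%, 25.8% and 26.7% in wild-type plates against 24.6%, 25.3%, 24.4% and 22.5% in mutant plates, all lower.

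From well to well the abundant members moved together. Spearman's rho between 2 members, each per 10000 transcripts outside spike-ins and mt- genes, had a median over the 10 pairs of 0.699 to 0.870 across the 7 plates (1033 wells in all, and wells of a plate share its library and sequencing run). With the mitochondrially encoded complex I genes the member sum had a rho of 0.822 to 0.935. The member sum also ran against depth, with a rho of -0.520 to -0.0680 with the well's transcripts outside spike-ins and mt- genes. That number is also the divisor of the member sum, which by itself can make rho negative. Among genes without an mt- symbol and detected in at least 50% of kept wells, ENSDARG00000080337 was most like the member sum (mean rho over plates 0.892, range 0.867 to 0.924). ENSDARG00000082753 came next (0.674), followed at a distance by ENSDARG00000003041 (0.102), MYH7, a myosin heavy chain (-0.046), and COX6A1, a nuclear cytochrome c oxidase subunit (-0.055). The first 3 have no symbol in the names table, so whether they are mitochondrially encoded could not be told from it. After the leading pair, the mean rho of every other candidate was thus at or below 0.102.

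The nuclear-encoded cox and atp5 genes numbered 34 (15 of complex IV and 19 of ATP synthase). Like most widely detected genes, they ran against the members from well to well when summed. Across kept wells rho between the member sum and their sum was -0.197, -0.239 and -0.183 in wild-type plates, against -0.622, -0.30, -0.098 and -0.239 in mutant plates. It was negative in 7 of 7 plates, and mutant plate 1 was the lowest. In cardiomyocyte-like wells it shrank to -0.040, -0.106 and -0.033 in wild-type plates, against -0.484, -0.093, 0.031 and -0.085 in mutant plates, and mutant plate 1 was the farthest from 0. The nuclear genes of the 2 complexes, in contrast, moved with each other, with a rho of 0.521 to 0.708 over all kept wells. Thinning each of 1026 wells to 1000 transcripts gave a rho of -0.59 to -0.11 between the members and the nuclear genes. That rho was again negative in 7 of 7 plates. In all these relations both sums were divided by the transcripts outside spike-ins and mt- genes, which include ENSDARG00000080337. Where that gene is abundant it lowers the nuclear value by construction, and its part in the negative rho was not tested. By complex, rho over all kept wells was -0.555 to 0.058 for complex IV, above 0 in mutant plate 3, and -0.616 to -0.169 for ATP synthase. In cardiomyocyte-like wells it was -0.391 to 0.211 for complex IV, above 0 in 3 of 7 plates, and -0.463 to -0.013 for ATP synthase, below 0 in 7 of 7.

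**Figure D4:**
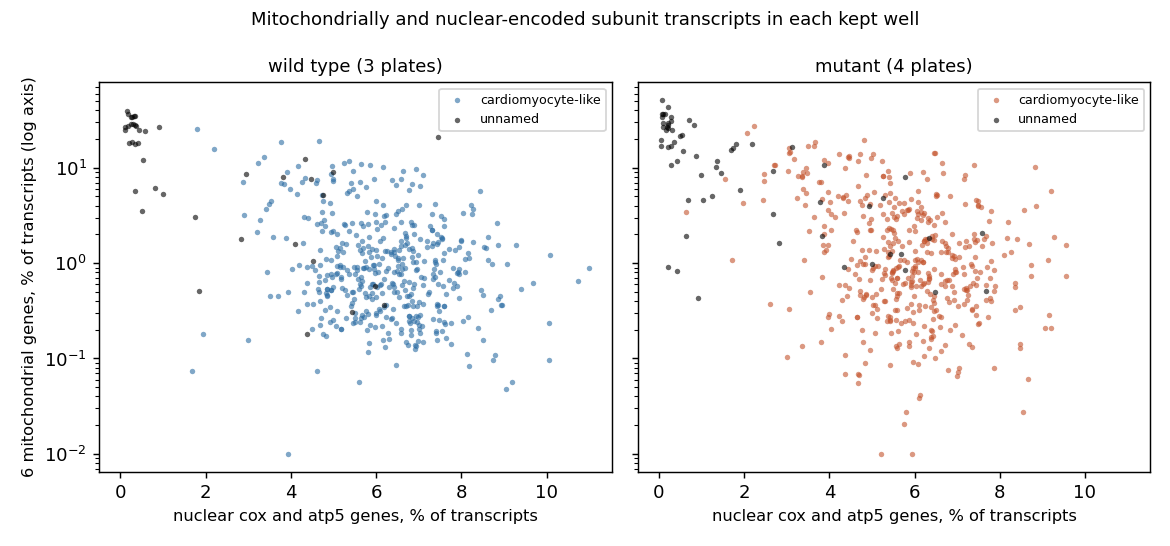
Share of the 6 mitochondrial genes (vertical log axis) against the share of nuclear-encoded cox and atp5 genes (horizontal axis), both in percent of the transcripts of a well outside spike-ins, for each kept well of the 3 wild-type plates (left) and 4 mutant plates (right). Coloured points are cardiomyocyte-like and black points unnamed wells; a group of unnamed wells in the upper left has a high mitochondrial and almost no nuclear subunit share in both genotypes, and 3 wells at 0 are drawn at the lower end.

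Relative to their nuclear partners, the summed members of cardiomyocyte-like wells were higher in every mutant plate. There were 0.234, 0.237 and 0.234 member transcripts per nuclear cox or atp5 transcript in wild-type plates, against 0.526, 0.418, 0.374 and 0.361 in mutant plates. The nuclear share itself was lower, at 6.22%, 6.25% and 6.31% in wild-type plates, against 5.61%, 6.18%, 6.02% and 5.33% in mutant plates, where plate 2 was only narrowly lower. That share is taken of all transcripts outside spike-ins, which include the members and ENSDARG00000080337. Where those are more abundant the nuclear share falls by construction, and their part in the lower share was not tested. By complex, the ratio was 0.440, 0.533 and 0.523 against 1.04, 0.786, 0.82896 and 0.727 for MT-CO1, MT-CO2 and MT-CO3 over nuclear complex IV. It was 0.1098, 0.0903 and 0.0929 against 0.224, 0.200, 0.148 and 0.160 for MT-ATP6 and MT-ATP8 over nuclear ATP synthase. For MT-CYB over nuclear complex III it was 0.337, 0.421 and 0.374 against 0.856, 0.585, 0.587 and 0.515. None of the 3 ratios overlapped between the groups. The median over wells did overlap, with 0.124, 0.143 and 0.134 in wild-type plates, against 0.230, 0.239, 0.112 and 0.151 in mutant plates for all 6 members together, and so did the summed ratio over all kept wells (0.737, 0.464 and 0.480 against 1.13, 1.05, 0.616 and 0.604).

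None of the nuclear-encoded subunit genes of complexes III and IV and ATP synthase rose in the same fit. Of 13 nuclear complex IV genes tested, 0 passed in either direction by edgeR, 2 had an unadjusted p under 0.05 (17.1% of all genes tested), and their median log2 fold change was -0.10, against 0.04 for all genes tested. COX4I1, a regulatory subunit and the most abundant of them, was at 3219, 2980 and 2946 CPM in wild-type plates, against 2572, 2510, 2558 and 2288 CPM in mutant plates. Its groups did not overlap, as for 6.58% of tested genes that were lower in every mutant plate, and it did not pass (log2 fold change -0.31, SE 0.14; adjusted p = 0.236 by edgeR). The next most abundant, cox6c and cox4i1l, had log2 fold changes of 0.04 and 0.18 (adjusted p of 0.947 and 0.563 by edgeR). Of 19 nuclear ATP synthase genes, 1 fell and none rose, with a median log2 fold change of -0.21, while 1.5% of all genes tested fell. A log2 fold change below 0 was seen in 17 of the 19, against 1004 of all 2128 genes tested. An unadjusted p under 0.05 by edgeR was seen in 4 (17.1% of all genes tested). For 6 of them every mutant plate was below every wild-type plate, as for 6.58% of tested genes. The one that fell was atp5md, a small membrane subunit, at 1562, 1434 and 1357 CPM in wild-type plates, against 1048, 1096, 1048 and 896 CPM in mutant plates (log2 fold change -0.53, SE 0.14; adjusted p = 0.0364 by edgeR). Every mutant plate was below every wild-type plate for atp5md. Its call was lost when any 1 plate but mutant plate 3 was left out (adjusted p of 0.239, 0.179 and 0.143 by edgeR without wild-type plates 1, 2 and 3, and 0.0849, 0.0701 and 0.0733 without mutant plates 1, 2 and 4). With library sizes from spike-ins it was -0.31 (adjusted p = 0.363 by edgeR). The catalytic subunits ATP5F1B and ATP5F1A and the ring subunit gene atp5mc3b, the 3 most abundant, had log2 fold changes of 0.09, 0.29 and -0.19 with adjusted p of 0.833, 0.343 and 0.496 by edgeR. With library sizes taken from spike-ins, where the median of all genes tested moved to 0.24, the medians of nuclear complex IV and ATP synthase became 0.10 and 0.03, still below that of all genes, while the members' median was 0.91.

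Of 8 nuclear complex III genes, 0 passed and 0 had an unadjusted p under 0.05 (edgeR; median log2 fold change 0.07). Its most abundant genes were CYC1 (cytochrome c1) and the small subunit genes UQCRQ and UQCRH, with log2 fold changes of 0.16, -0.15 and -0.26 and adjusted p of 0.663, 0.676 and 0.394 by edgeR. Of 21 genes for complex IV assembly, 12 were tested, 0 passed and 1 had an unadjusted p under 0.05. The most abundant were higd1a, cox17, a copper chaperone, and cox14, at log2 fold changes of -0.14, -0.21 and 0.01 (adjusted p of 0.772, 0.622 and 0.982 by edgeR). Of 21 genes for mitochondrial RNA synthesis and processing, 7 were tested and 0 passed, and 1 had an unadjusted p under 0.05. That gene was grsf1, which binds RNA in mitochondrial granules in human cells, with 138.98, 135.06 and 188.01 CPM in wild-type plates, against 111.4, 110.5, 101.2 and 90.4 CPM in mutant plates. Every mutant plate was lower for grsf1 (log2 fold change -0.61, SE 0.26; adjusted p = 0.215 by edgeR). HSD17B10, a part of mitochondrial RNase P in human cells, and fastk, the other most abundant genes of that list, had log2 fold changes of -0.31 and -0.35 (adjusted p of 0.622 and 0.660 by edgeR).

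The other mitochondrially encoded genes, which code for complex I subunits, numbered 7. All 7 had a log2 fold change above 0 in cardiomyocyte-like wells (median 0.67), 7 had an unadjusted p under 0.05, against 17.1% of all genes tested, and 2 rose. MT-ND5 was at 244.6, 328.01 and 316.7 CPM in wild-type plates, against 480, 464, 543 and 542 CPM in mutant plates (log2 fold change 0.81, SE 0.17; adjusted p = 0.00716 by edgeR). MT-ND1 was at 756, 1061 and 896 CPM in wild-type plates, against 1737, 1167, 1471 and 1325 CPM in mutant plates (log2 fold change 0.67, SE 0.17; adjusted p = 0.0245 by edgeR). Neither gene overlapped between the groups. MT-ND1 lost its call without wild-type plate 1 (adjusted p = 0.401 by edgeR), wild-type plate 3 (0.117), mutant plate 1 (0.0548) or mutant plate 3 (0.0530), and MT-ND5 without wild-type plate 1 (0.108). MT-ND4 and MT-ND2, the most abundant of the 7, had log2 fold changes of 0.50 and 0.45 and did not pass (adjusted p of 0.116 and 0.124 by edgeR). Members per complex I transcript came to 2.36 ± 0.155 (SD, n = 3) for wild type and 2.53 ± 0.203 (SD, n = 4) for mutants, and overlapped. ENSDARG00000080337 rose as well, from 22359, 23194 and 21043 CPM in wild-type plates to 80023, 36887, 31581 and 43396 CPM in mutant plates (log2 fold change 1.00, SE 0.21; adjusted p = 0.00592 by edgeR). It lost that call without wild-type plate 1 (adjusted p = 0.270 by edgeR), without mutant plate 4 (0.0502) and with DESeq2 (0.0926). This gene was named for following the members most closely in these same data, and it took part in the clustering that set the class. Its rise is therefore no separate result beside theirs. Of all genes tested in these wells, 2.44% rose.

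**Figure D5:**
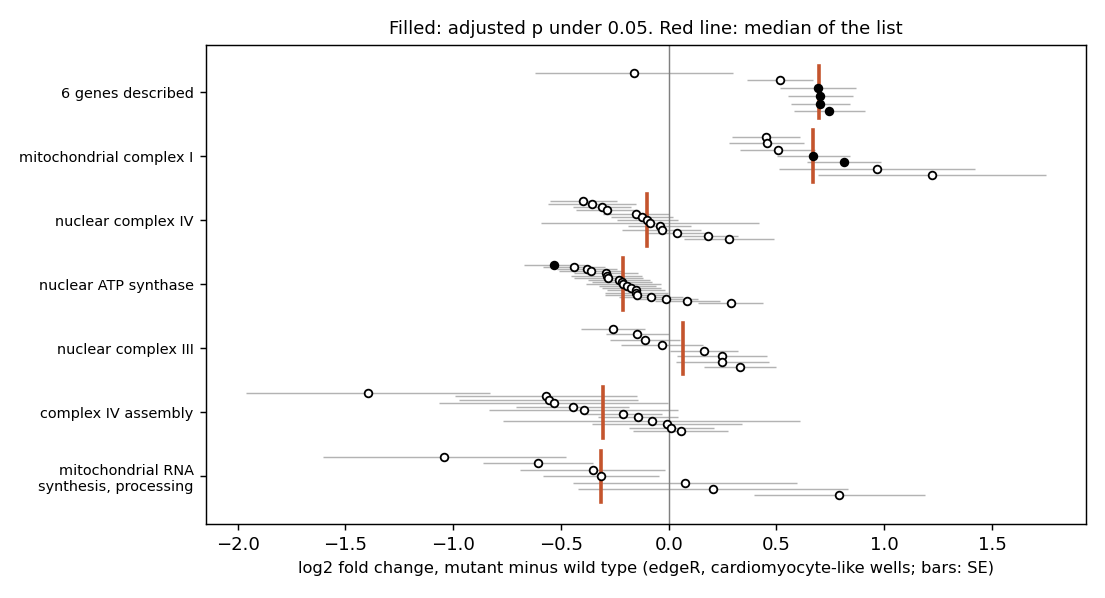
Log2 fold change (mutant minus wild type, with SE) of each tested gene of the 7 lists in cardiomyocyte-like wells, filled where the adjusted p was under 0.05, with the median of each list as a red line. All values drawn are with TMM scaling. The medians of the 6 genes described (0.70) and of mitochondrially encoded complex I (0.67) lie right of 0. Those of nuclear complex IV (-0.10) and ATP synthase (-0.21) lie left of it. With spike-in scaling, which is not drawn, the medians of these nuclear lists were above 0.

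Most of the member transcripts lay outside cardiomyocyte-like wells: the unnamed wells held 54.7% of those found in kept wells, and 65 wells of a single cluster held 45.1%. In that cluster the members made up 20.4%, 28.4% and 25.4% of the summed transcripts in wild-type plates, against 19.1%, 27.9%, 33.3% and 19.95% in mutant plates. The groups overlapped. ENSDARG00000080337, which led the cluster and took part in the clustering, made up 43.5% to 59.5% there, and nuclear cox and atp5 genes 0.156% to 1.31%. In the median well of the cluster, cardiomyocyte markers made up 1.71% of the transcripts outside spike-ins, mt- genes and hmga1a. By that share the cluster stayed unnamed. Between 6 and 17 kept wells per plate belonged to it. The 11-well cluster led by cd74a, cd74b and other genes, of which 6 wells were from mutant plate 1, gave 5.30% of its transcripts to the members. The 16-well cluster with krt8 and krt18a.1 among its leading genes gave 3.61%. Among the cardiomyocyte-like clusters the summed share ran from 0.924%, in the cluster of the greatest relative depth among them, led by myh6 and hsp70l, to 4.59%, in a cluster led by PARL and ribosomal protein genes. The relative depth of these 2 clusters was 1.80 and 0.683. The part of depth in the differences between genotypes was not tested.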

How the data were processed

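Single ventricle cells were counted by CEL-seq2. The deposited values are estimated counts: UMI numbers that the authors corrected for barcode saturation, since 100% of 857630 values above 0 fit a space of 4096 barcodes within 0.0051. BWA 0.6.2 is listed in the submitters' processing notes, and a genome build was not given in the sources used here. Wells with at least 1000 transcripts outside spike-ins and mt- genes were kept.

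Kept wells were clustered (scanpy 1.11.5, Leiden at resolution 1) without mt- genes, hmga1a and spike-ins, but with 2 genes without a symbol that follow the members; 1 cluster was clustered again. Clusters of at least 15 wells were called cardiomyocyte-like from marker lists. Doublets were not called. Wells were summed per plate, rounded and tested with edgeR 4.0.16 (TMM, low-count filter, sequencing run as covariate, quasi-likelihood test, Benjamini-Hochberg adjustment, threshold 0.05) across all genes. DESeq2 1.42.0 and limma 3.58.1 were alternatives. Named genes were the 6 described, the 3 most abundant of each list and list genes past the threshold. The step was tested on simulated data. The members and lists were chosen with earlier results of these data known.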

Additional observations from a re-analysis of the deposited data

Results flagged for a closer look

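Wells with fewer than 1000 transcripts outside spike-ins and mt- genes entered no main comparison, yet held transcripts of the 6 genes. Those with at least 500 entered only the settings with that limit. In wells with 300 to 1000 transcripts the members made up a median over the 7 plates of 8.05% of summed transcripts, and in wells with 100 to 300 transcripts 10.6%. There were no control samples for such wells. Both values are listed whatever their size, as data outside the main comparisons, and were set against no limit. None of 32 groups of 4 plates held a plate far from the others, where chance flags about 1 in 20.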

How the results depend on the processing

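No paired analysis was possible because the replicate numbers are only the order of deposit. Over all kept wells 14 genes passed; the count was 47 with DESeq2, 81 with no filter, 9 without the run covariate, 8 in run 1 alone (1 wild-type plate, assumed to vary like the mutant plates), 29 in run 2 alone, 44 with limma and equal weight of wells, 33 with thinned wells and 7 to 20 leaving out 1 plate. In cardiomyocyte-like wells 84 passed; the count was 46 without the run covariate, 17 at 500 transcripts, 31 at 2000, 42 in run 2 alone, 14 at cluster resolution 0.5 and 36 to 76 leaving out 1 plate. MT-ATP6 kept its call there in 21 of 26 other settings, MT-CO3 in 19, MT-CO1 in 18 and MT-CYB in 13; MT-CO2 gained one in 3 and was -0.038 at 500 transcripts. MT-ATP8 changed sign over all kept wells without the run covariate (0.0765), in run 2 alone (0.27), with spike-in library sizes (0.065) and with thinned wells (0.31), and ranged from -0.20 to 0.24 leaving out 1 plate. In cardiomyocyte-like wells it changed sign in run 2 alone (0.34), with spike-in library sizes (0.0497) and clustered without the 2 genes most like the members (0.27), and ranged from -0.37 to 0.32 leaving out 1 plate; it had no value at 2000 transcripts or with thinned wells, where it fell below the filter. Of the other genes named there, atp5md kept its call in 11 of 26 settings, MT-ND1 in 13, MT-ND5 in 17 and ENSDARG00000080337 in 19, each with its direction held. Among genes that did not pass in the main fit, MT-ND2 gained a call in 2 of 26 other settings, MT-ND4 in 3 and ATP5F1A, which stayed above 0 in all, in 1. MT-ND2 and MT-ND4 were -0.0209 and -0.0523 at 500 transcripts. UQCRQ was 0.0492 without the run covariate. In run 1 alone UQCRQ was 0.0321, higd1a 0.113 and HSD17B10 0.0089. In run 2 alone ATP5F1B was -0.107 and cox17 0.0057. With spike-in library sizes atp5mc3b was 0.0326, UQCRQ 0.0717 and higd1a 0.0986. With no filter cox6c was -0.0404. The value of cox14 was -0.0098 with DESeq2, -0.0080 with RLE factors, -0.078 with no filter, -0.0713 without the run covariate, -0.0072 at 500 and -0.0696 at 2000 transcripts, -0.17 in run 1 alone and -0.0020 at resolution 0.5. Leaving out 1 plate, ATP5F1B reached -0.123 to 0.237, CYC1 -0.0033 to 0.263, cox6c -0.028 to 0.1004 and cox14 -0.066 to 0.0732. The mean difference in median share, 0.473 percentage points, was 1.08 for plate sums, 0.967 in run 1 and -0.0170 in run 2. That of the ratio to nuclear genes, 0.105, was 0.288 for plate sums, 0.218 in run 1 and -0.0040 in run 2, and that of members per spike-in, 0.0183, was 0.0512 for plate sums, 0.0341 in run 1 and 0.00041 in run 2. Beyond the construction of each setting, the cause was not tested. Settings for spike-in size, thinning, clustering and the genes without a symbol were chosen after seeing the data.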
